A study of Mus musculus with 20 samples.

Results

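The genes described here are 9 genes known for their use in endoderm: Gata4, Gata6, Sox17, Sox7, Foxa2, Foxa1, Hnf4a, Pdgfra and Dab2. They were chosen by name, with earlier results of these data known. All 9 were found among the 53440 genes of the RNA table and among the 20462 genes of each histone mark table. The first 7 code for transcription factors. Pdgfra codes for a receptor tyrosine kinase and Dab2 for an endocytic adaptor, so the group is called the endoderm genes below. The study asked how chromatin assembly factor 1 (CAF-1), a histone chaperone that deposits new histones during DNA replication, bears on the differentiation of mouse embryonic stem (ES) cells.

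Libraries came from the TL1 line of mouse ES cells, either wild type or with p150, the large CAF-1 subunit made from Chaf1a, depleted by CRISPR/Cas9; the depleted cells are called knockout, as in the labels. ES cells were kept in a serum medium with leukaemia inhibitory factor (LIF). Embryoid bodies (EB), the aggregates in which ES cells differentiate, were kept in that medium without LIF. RNA sequencing covered ES cells and EB of each genotype, 4 groups with 2 libraries each. The marks H3K27me3 and H3K4me3 were measured by chromatin immunoprecipitation and sequencing (ChIP) in 1 library for each mark and group. The labels do not say whether the knockout line is a single clone, nor whether the 2 RNA libraries of a group came from separate cultures; p-values then reflect no more than the variation among these libraries, possibly technical.

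RNA levels are given in FPKM, fragments per kilobase of transcript scaled to the size of the library, and FPKM totals per library ran from 641612 to 781876. The table holds no counts, so the depth behind each value is unknown. Chaf1a RNA was at 48.1 and 38.0 FPKM in knockout ES and at 49.5 and 43.0 FPKM in wild-type ES, and at 31.6 and 35.0 FPKM in knockout EB against 31.7 and 32.1 FPKM in its wild-type counterpart. These levels do not separate the genotypes, which therefore rest on the labels. The label ES was compared with 20 pluripotency genes, whose summed level was 6911 to 7711 FPKM in the 4 ES libraries. That sum was 386 and 655 FPKM in wild-type EB, against 8372 and 5968 FPKM in knockout EB. All 20 of these genes were higher in knockout than in wild-type EB (limma, adjusted p under 0.05), as were 20.0% of all genes tested. The samples are bulk cultures, in which fewer cells of a type and less RNA per cell cannot be told apart.

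In the blastocyst, Gata6, Pdgfra, Sox17, Gata4 and Sox7 mark primitive endoderm, the lineage that gives rise to parietal and visceral endoderm of the yolk sac. Foxa2, Foxa1 and Hnf4a act in visceral endoderm and again in the definitive endoderm that forms gut and liver. Several of these genes are not restricted to endoderm: Gata4 and Gata6 also act in the heart, Sox17 and Sox7 in endothelium, and Pdgfra in mesenchyme. In ES cells such developmental regulators often carry H3K27me3, a mark of Polycomb silencing, together with H3K4me3, a mark of active or poised promoters.

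Promoter sequences were looked up in a RefSeq table (GRCm38.p6, the assembly of mm10) of 300 bases around each gene start, most of them before it, and 5 of the 9 genes had an entry. Polycomb targets are known to be rich in CpG, so 3 promoters that differ in it are shown, each the entry nearest the start of the gene's locus. They read 5′ to 3′ on the strand of the gene, with every CpG in capitals. Foxa2 lies at chr2:148046920-148047219 on the minus strand, Foxa1 at chr12:57546062-57546361 on the minus strand and Hnf4a at chr2:163506607-163506906 on the plus strand.
Foxa2: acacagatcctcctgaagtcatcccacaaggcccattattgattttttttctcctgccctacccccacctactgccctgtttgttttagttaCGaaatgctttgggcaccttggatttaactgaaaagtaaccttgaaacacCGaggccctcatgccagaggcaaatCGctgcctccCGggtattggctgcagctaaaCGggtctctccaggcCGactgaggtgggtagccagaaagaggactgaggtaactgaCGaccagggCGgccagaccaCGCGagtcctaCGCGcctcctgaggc
Foxa1: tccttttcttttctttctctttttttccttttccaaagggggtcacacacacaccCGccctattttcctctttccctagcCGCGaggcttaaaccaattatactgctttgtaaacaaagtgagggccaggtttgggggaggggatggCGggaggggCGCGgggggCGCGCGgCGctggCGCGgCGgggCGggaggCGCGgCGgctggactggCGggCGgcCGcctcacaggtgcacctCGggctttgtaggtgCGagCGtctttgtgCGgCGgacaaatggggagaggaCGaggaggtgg
Hnf4a: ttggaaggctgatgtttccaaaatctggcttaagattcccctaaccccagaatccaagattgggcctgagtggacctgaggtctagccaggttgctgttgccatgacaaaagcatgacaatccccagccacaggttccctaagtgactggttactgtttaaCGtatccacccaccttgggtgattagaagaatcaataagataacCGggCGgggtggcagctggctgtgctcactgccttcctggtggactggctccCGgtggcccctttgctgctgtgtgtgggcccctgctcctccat
The Foxa1 window holds 26 CpG, more than 83.1% of the 32851 promoters in the table, whose median is 7. The Foxa2 window holds 12 CpG and the Hnf4a window 4. Pdgfra and Dab2, not shown, have entries with 5 CpG for Pdgfra and with 2 and 19 CpG for Dab2. Foxa2 has 2 further entries, with 23 CpG and with 13 CpG and 1 AGATAA match, so the window shown is the poorest of its 3 in CpG; the other Hnf4a entry also holds 4 CpG. These windows were also searched on both strands for AGATAA, a form of the GATA site, and TGTTTAC, a form of the forkhead site; the motifs do not overlap each other. Of the 3 windows shown, AGATAA occurs once in that of Hnf4a and TGTTTAC once in that of Foxa1 (on its other strand), against 11.2% and 3.65% of all promoters with at least 1 match. These matches describe the letters and not a bound site.

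In the deposited table (mm10), the locus of Gata4 spans 63198922 to 63271692 and that of Sox7 63943673 to 63950732, both on chromosome 14. Foxa2 spans 148042877 to 148046969 and Hnf4a 163506808 to 163572910, both on chromosome 2. Sox17 lies on chromosome 1 (4490931 to 4497354), Foxa1 on chromosome 12 (57540628 to 57546916), Pdgfra on chromosome 5 (75152292 to 75198215), Dab2 on chromosome 15 (6299788 to 6440712) and Gata6 on chromosome 18.

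All 9 endoderm genes were low in ES cells and rose in EB of both genotypes. The rise in knockout EB was smaller for Gata4, Gata6, Foxa2, Foxa1 and Pdgfra, and the knockout EB levels ranged from 7.39% of wild type for Pdgfra to 169% for Hnf4a. In EB, Gata4, Gata6, Sox7, Foxa2, Foxa1 and Pdgfra were lower in knockout than in wild type, Hnf4a was higher, and Sox17 and Dab2 did not pass the test.

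**Figure D1:**
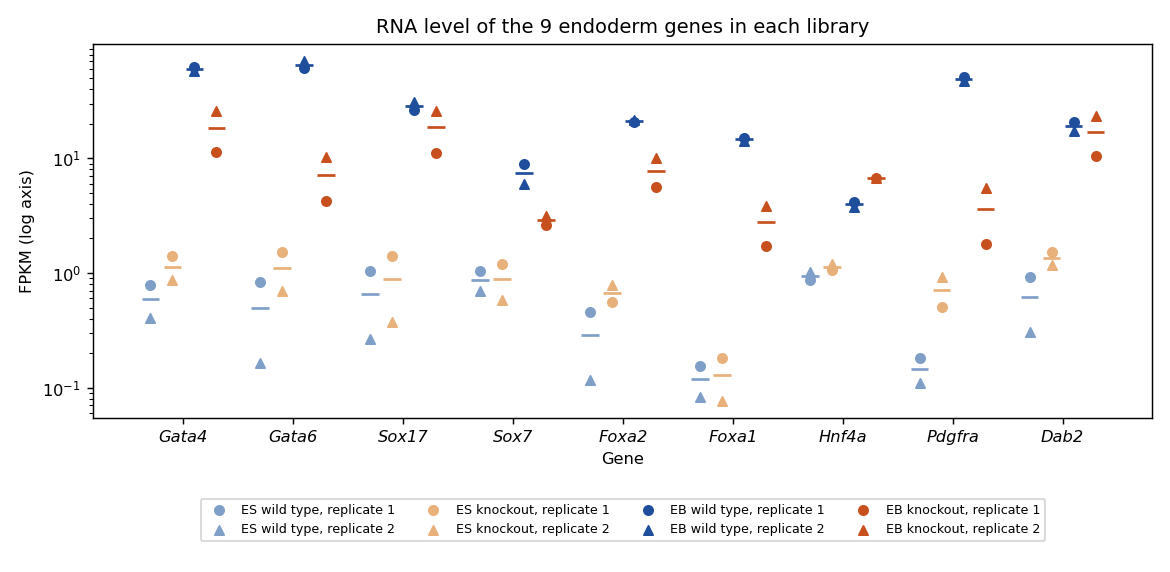
RNA level of the 9 endoderm genes in each of the 8 libraries, in FPKM on a log axis; colours mark the 4 groups and symbols the 2 replicates, and short lines mark group means. Every gene sits higher in the EB libraries than in the ES libraries, and the 2 knockout EB libraries sit below both wild-type EB libraries for 7 of 9 genes.

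The zinc-finger factors Gata4 and Gata6 were the highest of the group in wild-type EB. Gata4 (ENSMUSG00000021944.15) stood at 0.783 and 0.402 FPKM in wild-type ES, 1.41 and 0.866 FPKM in knockout ES, 63.0 and 57.7 FPKM in wild-type EB, against 11.4 and 25.7 FPKM in knockout EB. The EB groups do not overlap, and the knockout libraries lie further apart than the wild-type ones. In EB the knockout was lower by a log2 difference of -1.75 ± 0.35 (SE, n = 2 per group, on log2(FPKM + 1); limma, adjusted p = 0.00680).

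Gata6 (ENSMUSG00000005836.8) stood at 0.830 and 0.165 FPKM in wild-type ES, 1.51 and 0.698 FPKM in knockout ES, 60.9 and 70.6 FPKM in wild-type EB, against 4.24 and 10.2 FPKM in knockout EB. The knockout EB libraries lie far below both wild-type EB libraries, at 11.0% of their mean. The log2 difference was -3.12 ± 0.40 (SE, n = 2 per group; limma, adjusted p = 0.00144). In wild-type EB the 2 genes overlap, with means of 65.7 ± 6.85 FPKM for Gata6 and 60.4 ± 3.69 FPKM for Gata4 (SD, n = 2). In knockout EB Gata4, at 18.5 ± 10.1 FPKM, lies above Gata6, at 7.22 ± 4.22 FPKM (SD, n = 2), in both libraries.

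The SOX factors Sox17 and Sox7 belong to one subfamily, and Sox7 was called lower in knockout EB while Sox17 was not. Sox17 (ENSMUSG00000025902.13), a factor of endoderm and of arterial endothelium, stood at 1.05 and 0.268 FPKM in wild-type ES, with 1.40 and 0.374 FPKM in knockout ES. It reached 26.6 and 31.1 FPKM in wild-type EB, against 11.2 and 26.1 FPKM in knockout EB. One knockout EB library thus lies just under the lower wild-type library and the other far under it. The log2 difference of -0.71 ± 0.44 did not pass the test (SE, n = 2 per group; limma, adjusted p = 0.229), and without knockout EB replicate 1 it was -0.14.

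Sox7 (ENSMUSG00000063060.6), a factor of parietal endoderm and endothelium, stood at 1.05 and 0.700 FPKM in wild-type ES, 1.19 and 0.580 FPKM in knockout ES, 8.99 and 5.97 FPKM in wild-type EB, against 2.64 and 3.11 FPKM in knockout EB. Both knockout EB libraries lie below both wild-type ones. The log2 difference was -1.11 ± 0.26 (SE, n = 2 per group; limma, adjusted p = 0.0118). The call was lost without wild-type EB replicate 1 (adjusted p = 0.0677) or knockout EB replicate 1 (adjusted p = 0.0652).

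The forkhead factors Foxa2 and Foxa1, which open closed chromatin at endoderm enhancers, were both lower in knockout EB. Foxa2 (ENSMUSG00000037025.11) stood at 0.459 and 0.116 FPKM in wild-type ES, 0.563 and 0.779 FPKM in knockout ES, 20.8 and 21.8 FPKM in wild-type EB, against 5.67 and 9.96 FPKM in knockout EB. The wild-type EB libraries lie close together and above both knockout ones. The log2 difference was -1.38 ± 0.27 (SE, n = 2 per group; limma, adjusted p = 0.00609).

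Foxa1 (ENSMUSG00000035451.7) was the lowest of the 9 in ES, at 0.155 and 0.0825 FPKM in wild type and 0.181 and 0.0771 FPKM in knockout. It stood at 15.0 and 14.2 FPKM in wild-type EB, against 1.72 and 3.83 FPKM in knockout EB, where the groups are far apart. The log2 difference was -2.10 ± 0.27 (SE, n = 2 per group; limma, adjusted p = 0.00147). The knockout mean was 19.0% of wild type for Foxa1 and 36.8% for Foxa2.

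Hnf4a (ENSMUSG00000017950.16), a nuclear receptor of visceral endoderm and liver, went the other way. It stood at 0.874 and 1.03 FPKM in wild-type ES, 1.06 and 1.20 FPKM in knockout ES, 4.18 and 3.77 FPKM in wild-type EB, against 6.72 and 6.72 FPKM in knockout EB. Both knockout EB libraries lie above both wild-type ones, with almost no spread. The log2 difference was 0.63 ± 0.16 (SE, n = 2 per group; limma, adjusted p = 0.0165). The call was lost without wild-type EB replicate 2 (adjusted p = 0.0812) or knockout EB replicate 1 (adjusted p = 0.0570), and with FPKM scaled to a common total (log2 difference 0.46, adjusted p = 0.0512).

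Pdgfra (ENSMUSG00000029231.15), the receptor for PDGF ligands, had the lowest knockout EB level relative to wild type among the 9 genes. It stood at 0.181 and 0.111 FPKM in wild-type ES, 0.505 and 0.921 FPKM in knockout ES, 51.4 and 47.4 FPKM in wild-type EB, against 1.78 and 5.52 FPKM in knockout EB. The EB groups lie far apart, and the knockout ES libraries lie above the wild-type ES ones at a low level. In EB the log2 difference was -3.56 ± 0.37 (SE, n = 2 per group; limma, adjusted p = 0.000774).

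Dab2 (ENSMUSG00000022150.16), an adaptor for clathrin-mediated uptake that visceral endoderm needs, stood at 0.922 and 0.303 FPKM in wild-type ES, with 1.53 and 1.18 FPKM in knockout ES. It reached 20.7 and 17.4 FPKM in wild-type EB, against 10.4 and 23.4 FPKM in knockout EB. Here the EB groups overlap, with 1 knockout library below and 1 above both wild-type ones. The log2 difference of -0.26 ± 0.37 did not pass the test (SE, n = 2 per group; limma, adjusted p = 0.600), and it was 0.29 without knockout EB replicate 1.

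By mean level in wild-type EB the genes follow the order Gata6, Gata4, Pdgfra, Sox17, Foxa2, Dab2, Foxa1, Sox7 and Hnf4a. The libraries of Gata6 and Gata4 overlap, and Foxa2 and Dab2 (21.3 ± 0.693 and 19.0 ± 2.37 FPKM; SD, n = 2) differ by less than the spread of Dab2. In knockout EB the order is Sox17, Gata4, Dab2, Foxa2, Gata6, Hnf4a, Pdgfra, Sox7 and Foxa1. The first 3 (18.6 ± 10.5, 18.5 ± 10.1 and 16.9 ± 9.22 FPKM; SD, n = 2) differ by far less than their spread. Hnf4a, the lowest gene in wild-type EB, thus has 3 genes below it in knockout EB, where its libraries lie above those of each of these 3.

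In ES cells none of the 9 genes passed the test between the genotypes (limma; 0 of 9 at adjusted p under 0.05 and 0 of 9 at unadjusted p under 0.05, where 0.499% of the 15424 genes tested were called and 2106 had an unadjusted p under 0.05). The median log2 difference of the 9 was 0.39, against 0.022 over all genes tested. Levels of the 9 genes in ES ran from 0.0771 to 1.53 FPKM. Gata4, Foxa2, Hnf4a, Pdgfra and Dab2 had both knockout ES libraries above both wild-type ones, 5 of 9 genes, as did 25.6% of all genes tested.

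In EB 6 of 9 genes were called lower in knockout and 1 higher, where 25.9% and 20.0% of all genes tested were called lower and higher. The median log2 difference was -1.38, against -0.064 over all genes tested. Both knockout libraries lay below both wild-type ones for 7 of the 9, as they did for 42.2% of all genes tested, and above both for Hnf4a, as for 34.8%. All 9 genes passed the filter of 1 FPKM in 2 libraries. However, 5 of them (Gata4, Gata6, Foxa2, Foxa1 and Pdgfra) passed it only with EB libraries and so had to differ between ES and EB. All 5 are among the 6 called lower in knockout EB. The direction of Gata4, Gata6, Sox7, Foxa2, Foxa1, Pdgfra and Hnf4a was the same with quantile normalization and with a common FPKM total.

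In wild-type EB against wild-type ES, 9 of 9 genes rose (36.2% of all genes tested were called higher). For the 5 genes that passed the filter only with EB libraries, a rise was favoured in advance. Log2 differences ran from 1.35 ± 0.16 for Hnf4a to 5.51 ± 0.40 for Gata6 (SE, n = 2 per group; limma, adjusted p = 0.000357 and 5.93e-05). In knockout EB against knockout ES, 9 of 9 rose as well, where 17.1% of all genes tested were called higher. Only 6 of the 9 were called with no filter on low values or with only the 4 libraries compared: Gata6 (adjusted p = 0.0557 and 0.0559), Sox7 (adjusted p = 0.0745 and 0.0534) and Pdgfra (adjusted p = 0.110 and 0.114) then missed the threshold. There the log2 differences ran from 1.06 ± 0.26 for Sox7 to 3.32 ± 0.44 for Sox17 (SE, n = 2 per group; limma, adjusted p = 0.0227 and 0.00326). The median over the 9 genes was 4.12 in wild type and 1.89 in knockout, against 0.12 and 0.069 over all genes. With 1 library left out at a time, 6 to 8 of the 9 were called in knockout, where Pdgfra, at 1.32 ± 0.37 (SE, n = 2 per group), was 0.71 without knockout EB replicate 2 and lost its call without any 1 of 7 of the 8 libraries. The rise of Gata6 in knockout lost its call without ES knockout replicate 2 (adjusted p = 0.0684) or knockout EB replicate 2 (adjusted p = 0.0597), and that of Sox7 without either of these (adjusted p = 0.101 and 0.0965) or knockout EB replicate 1 (adjusted p = 0.0607).

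**Figure D2:**
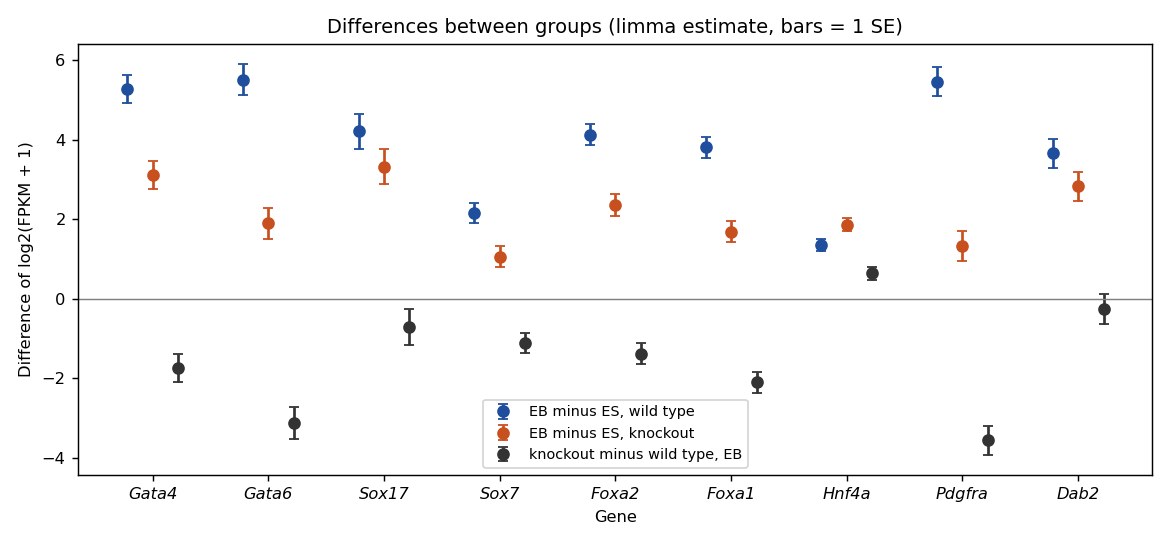
Differences of log2(FPKM + 1) between groups for each of the 9 genes, as limma estimates with bars of 1 SE. The rise from ES to EB lies above 0 for every gene in both genotypes, and the knockout effect in EB lies furthest below 0 for Pdgfra (-3.56) and Gata6 (-3.12) and above 0 for Hnf4a alone (0.63).

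The knockout effect in EB was then set against that in ES in the same fit. It was more negative in EB for Gata4 (-2.18 ± 0.50, adjusted p = 0.0182), Gata6 (-3.62 ± 0.57, adjusted p = 0.00583), Foxa2 (-1.77 ± 0.38, adjusted p = 0.0149), Foxa1 (-2.12 ± 0.39, adjusted p = 0.00905) and Pdgfra (-4.13 ± 0.53, adjusted p = 0.00384; log2, SE, limma). That is 5 of 9 genes, where 18.6% of all genes tested were called in that direction. These are the same 5 that passed the filter only with EB libraries, so the count is no independent support. The difference did not pass the test for Sox7 (-1.10 ± 0.36, adjusted p = 0.0562), Hnf4a (0.51 ± 0.23, adjusted p = 0.131), Dab2 (-0.83 ± 0.52, adjusted p = 0.263) and Sox17 (-0.88 ± 0.63, adjusted p = 0.318). For Gata4 the call was lost without the second wild-type or the first knockout ES library and without either wild-type EB library (adjusted p from 0.0542 to 0.0620), and with no filter on low values (adjusted p = 0.0634), and for Foxa2 without wild-type EB replicate 2 (adjusted p = 0.0540). For Sox7 it passed with a common FPKM total (adjusted p = 0.0306), for Hnf4a with quantile normalization (0.86, adjusted p = 0.0307) and for Dab2 without knockout EB replicate 2 (-1.38, adjusted p = 0.0424).

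The 2 knockout EB libraries stand apart from each other. Replicate 1 lies below replicate 2 for 8 of the 9 genes, where 52.2% of all genes tested do so, and the summed level of the 9 genes was 55.8 and 115 FPKM in the 2 libraries, against 271 and 270 FPKM in wild-type EB. Markers of other cell types moved between the same libraries, where 25.9% of all genes tested were called lower in knockout EB. The 16 cardiomyocyte markers summed to 5635 and 4452 FPKM in wild-type EB, against 47.3 and 366 FPKM in knockout EB, with 15 of 16 called lower and Nppa listed at 0 in both knockout EB libraries. The 14 endothelial markers summed to 435 and 298 FPKM in wild type and 130 and 194 FPKM in knockout, with 8 of 14 lower. The 15 fibroblast and mesenchyme markers summed to 1735 and 1984 FPKM in wild type and 288 and 532 FPKM in knockout, with 14 of 15 lower. These cell types also express Gata4 and Gata6, Sox17 and Sox7, and Pdgfra respectively, and their part in the differences of those genes was not tested.

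H3K27me3 separates the 9 genes by the length of their loci. The deposited values are a signal per gene in 1 library per group, so the ratios below have no replicate check and no test. Values over all genes rose with the length of the locus (Spearman's rho 0.588 to 0.686 across genes within a library, the genes not being independent), so levels are compared between libraries and not between genes. The 4 genes with loci under 10 kb, a length chosen after the values were seen, gained the mark in wild-type EB and held much less of it in knockout EB.

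Sox17 (locus of 6.42 kb) had an H3K27me3 signal of 8.56 in wild-type ES, 5.20 in knockout ES, 30.6 in wild-type EB, against 6.99 in knockout EB. Foxa2 (4.09 kb) had 4.59, 3.33, 32.9 and 7.50 in the same order. Foxa1 (6.29 kb) had 7.92, 6.24, 28.5 and 8.51. In all 3 the wild-type EB library stands out above the other 3 libraries. Sox7 (7.06 kb) had 8.22, 7.68, 23.1 and 11.2, with the wild-type EB library again the highest.

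**Figure D3:**
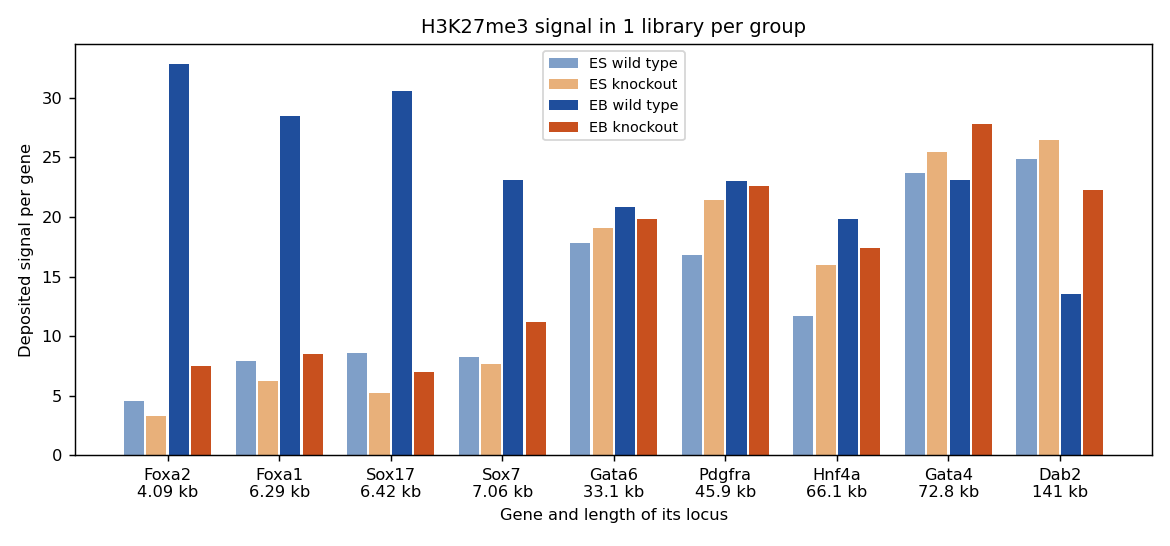
Deposited H3K27me3 signal of each of the 9 genes in 1 library per group, as bars from 0, with the length of each locus in kb under its name. For Sox17, Sox7, Foxa2 and Foxa1 the wild-type EB bar, at 23.1 to 32.9, stands above the other 3 bars, and for the longer loci the 4 bars are closer to each other.

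From ES to EB in wild type, H3K27me3 rose by log2 ratios of 2.81 at Foxa2, 1.83 at Sox17, 1.83 at Foxa1 and 1.48 at Sox7. Those 4 of 9 genes were 2-fold or more higher, where 13.1% of all genes at or above the minimum signal were, and 28.3% of those with loci under 10 kb. From ES to EB in knockout only Foxa2 passed 2-fold, at 1.15 (8.01% of all genes and 20.3% of those with loci under 10 kb). In EB the knockout was lower at Foxa2 (-2.12), Sox17 (-2.11), Foxa1 (-1.73) and Sox7 (-1.04). Those 4 of 9 were 2-fold or more lower, against 7.47% of all genes and 20.5% of those with loci under 10 kb. In ES none of the 9 differed by 2-fold (1.08% of all genes were that much higher and 2.01% that much lower).

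Among the 5 genes with longer loci, no ratio passed 2-fold in any comparison. Gata4 (72.8 kb) had an H3K27me3 signal of 23.7 in wild-type ES, 25.5 in knockout ES, 23.1 in wild-type EB, against 27.8 in knockout EB. Gata6 (33.1 kb) had 17.8, 19.1, 20.8 and 19.8, and Pdgfra (45.9 kb) 16.8, 21.4, 23.0 and 22.6. At these 3 genes, whose RNA was called lower in knockout EB, the H3K27me3 signals of the 2 EB libraries differed by less than 2-fold. The window behind a value is not given, so whether a change limited to part of these longer loci went unseen was not tested. Hnf4a (66.1 kb) had 11.7, 16.0, 19.8 and 17.4. Dab2 (141 kb) had 24.9, 26.5, 13.6 and 22.3, so its wild-type EB library was the lowest of the 4.

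**Figure D4:**
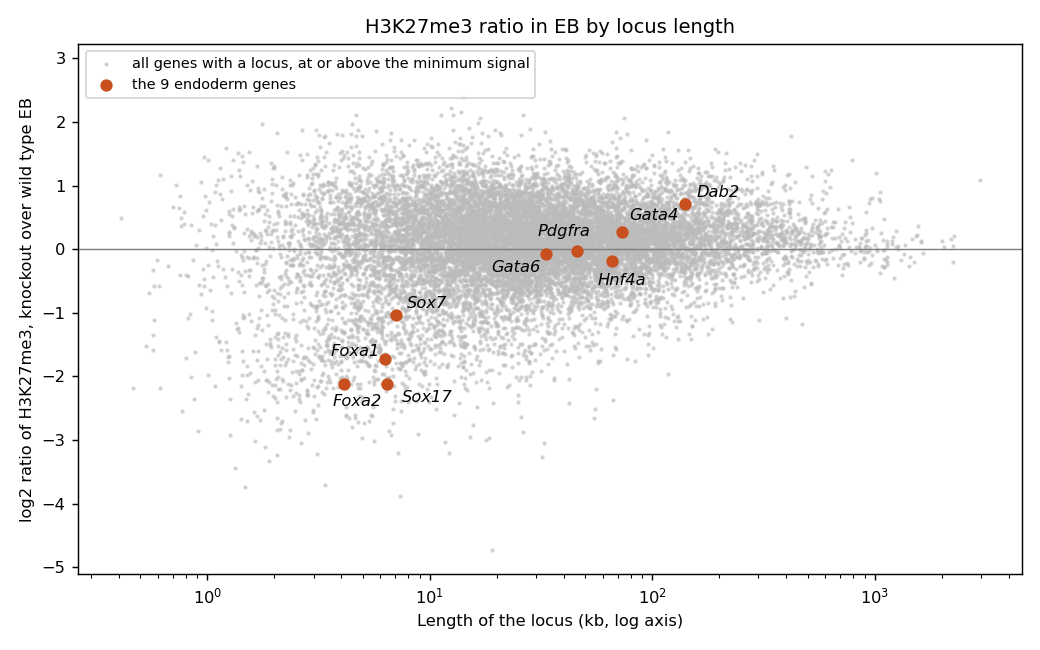
log2 ratio of H3K27me3 in knockout over wild-type EB against the length of the locus in kb on a log axis, for 14310 genes (grey) and the 9 endoderm genes (orange). The 4 endoderm genes with loci under 10 kb lie between -2.12 and -1.04, and the other 5 between -0.19 and 0.71.

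Because values rose with the length of the locus, each gene was also ranked among loci within 2-fold of its own length. In wild-type ES, H3K27me3 of 7 of the 9 genes lay above the 90th percentile of such loci, with Hnf4a at 75.2 and Dab2 at 77.5. In wild-type EB the 4 genes with short loci lay from 95.5 to 97.6, and in knockout EB from 90.9 to 95.7. These 4 genes were thus above the 90th percentile of loci of like length in both EB libraries. The H3K27me3 library of wild-type EB holds 4130691 steps of its smallest value, against 5372693 to 5959392 in the other 3. Its step is also larger, at 0.04 against 0.02668. Counted in steps, wild-type against knockout EB was 765 against 262 at Sox17 and 822 against 281 at Foxa2. It was 712 against 319 at Foxa1 and 577 against 419 at Sox7. Whether a step is 1 read is not given in the sources used here. The part of depth and of the larger step in the ratios above was not tested.

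H3K4me3 differed between the EB groups at genes with short and with long loci. The signal was 2-fold or more higher in EB than in ES of wild type at 8 of 9 genes, all but Hnf4a (10.8% of all genes), and it was 2-fold or more lower in knockout than in wild-type EB at Gata6, Pdgfra, Foxa1 and Foxa2 (3.50% of all genes). None of the 9 was 2-fold higher in knockout EB, against 9.71% of all genes.

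Gata6 had an H3K4me3 signal of 4.35 in wild-type ES, 5.44 in knockout ES, 50.4 in wild-type EB, against 18.6 in knockout EB. Pdgfra had 7.36, 7.76, 47.9 and 16.9 in the same order, and Gata4 8.30, 7.71, 30.3 and 17.4. At all 3 genes the knockout EB library lies between the ES libraries and the wild-type EB library. The log2 ratios of knockout over wild-type EB were -1.44 at Gata6, -1.50 at Pdgfra and -0.79 at Gata4.

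The forkhead and SOX genes showed the same order, with the knockout EB library between the ES libraries and the wild-type EB library. Foxa2 had 3.31, 4.35, 22.3 and 11.0 (knockout at 0.499 of wild-type EB on signal + 0.1), Foxa1 5.15, 6.14, 20.0 and 9.66 (log2 ratio in EB -1.05), Sox17 6.88, 6.32, 20.8 and 12.5 (-0.74) and Sox7 2.13, 3.12, 7.63 and 5.02 (-0.60). Foxa2 lies at the limit of the 2-fold count, and the count of 4 fell to 3 with a pseudocount of 0.5 and to 2 with the median of all genes subtracted. At these 4 genes H3K27me3 and H3K4me3 were both lower in knockout than in wild-type EB, and so was RNA, called for Foxa2, Foxa1 and Sox7 and not for Sox17.

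**Figure D5:**
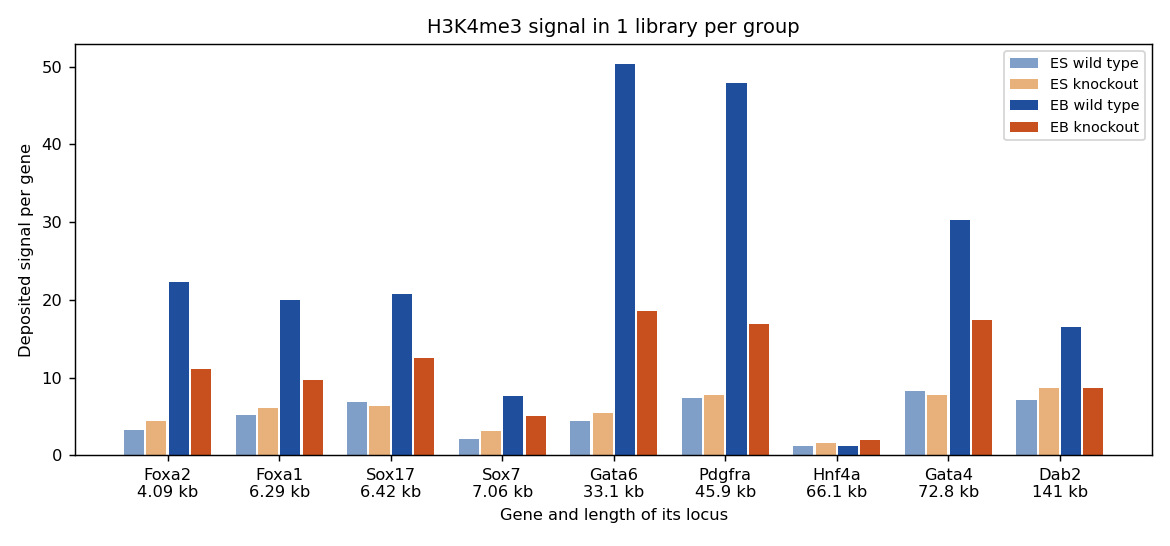
Deposited H3K4me3 signal of each of the 9 genes in 1 library per group, as bars from 0, with the length of each locus in kb under its name. The wild-type EB bar is the highest for 8 of the 9 genes, reaching 50.4 at Gata6, and for Hnf4a all 4 bars lie between 1.20 and 1.95.

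Dab2 had an H3K4me3 signal of 7.10 in wild-type ES, 8.67 in knockout ES, 16.5 in wild-type EB, against 8.67 in knockout EB, a log2 ratio in EB of -0.92, while its RNA overlapped between the EB groups. Hnf4a had 1.20, 1.52, 1.25 and 1.95, with a log2 ratio in EB of 0.60. It was the lowest of the 9 in every library and the 1 gene with a higher H3K4me3 signal in knockout EB. Its signals lay far below the library medians over all genes, 8.94 to 11.0. With a pseudocount of 0.5 its log2 ratio in EB was 0.48. In knockout EB against knockout ES, Gata6, Foxa2, Gata4 and Pdgfra rose 2-fold or more (log2 ratios of 1.75, 1.32, 1.17 and 1.12; 1.50% of all genes). In ES none of the 9 differed by 2-fold between genotypes (0.545% of all genes were that much higher and 0.217% that much lower).

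Other endoderm genes, GATA partners and epithelial genes were counted in the same fit. The counts are to be read against the 20.0% of all genes tested called higher and the 25.9% called lower in knockout EB. Of 16 other endoderm transcription factors tested, 5 were higher in knockout EB and 4 lower, with a median log2 difference of 0.61. Gata5, a GATA factor of heart and endoderm, stood at 14.9 and 13.0 FPKM in wild-type EB, against 0.142 and 1.26 FPKM in knockout EB (log2 difference -3.21 ± 0.31, SE, n = 2 per group; limma, adjusted p = 0.000575). Otx2, a factor of epiblast and anterior visceral endoderm, stood at 21.7 and 20.7 FPKM in wild type and 50.4 and 64.8 FPKM in knockout (1.39 ± 0.15, SE, n = 2 per group; limma, adjusted p = 0.000853). H3K27me3 of this list was 2-fold or more lower in knockout EB at 11 of 20 genes (7.47% of all genes and 20.5% of those with loci under 10 kb), with a median log2 ratio of -1.18. Of 7 GATA partners and relatives, 6 were lower, among them the cofactor Zfpm2 (-2.02 ± 0.21) and the bridging factor Lmo2 (-2.27 ± 0.33; log2, SE, n = 2 per group).

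Of 24 endoderm signals and receptors, 9 were higher and 9 lower in knockout EB, against 20.0% and 25.9% of all genes tested. The ligand Nodal, which is needed for endoderm formation, was higher in knockout than in wild-type EB by a log2 difference of 2.34 ± 0.15. Its level was 29.6 to 44.1 FPKM in ES, 3.18 and 3.61 FPKM in wild-type EB and 19.3 and 23.4 FPKM in knockout EB. Nodal thus fell from ES to EB in both genotypes, but less in knockout (-0.88 ± 0.15). The receptor Fgfr3 differed between the EB genotypes by -2.51 ± 0.22 (log2, SE, n = 2 per group). Fgf4, Tdgf1 and Gdf3 of this list are also among the pluripotency genes. Of 15 basement membrane and adhesion genes, products of parietal endoderm in large part, 1 was higher and 7 were lower. Serpinh1, the collagen chaperone, changed by -1.95 ± 0.20 and the basement membrane protein Nid2 by 0.82 ± 0.11 (log2, SE, n = 2 per group). Nid2 stood at 159 to 192 FPKM in ES, so its knockout EB levels of 106 and 116 FPKM lay below those in ES. Of 21 transport and secreted proteins of endoderm, 4 were higher and 6 lower, shares near those of all genes, with the fetal serum protein Afp at -3.49 ± 0.59 and the apolipoprotein Apoa4 at 1.17 ± 0.23 (log2, SE, n = 2 per group). Of 10 epithelial genes 4 were higher and none lower, among them the trypsin inhibitor Spink1 (2.37 ± 0.34) and the adhesion protein Epcam (1.10 ± 0.12; log2, SE, n = 2 per group).

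Across the 8 libraries the RNA pattern of Gata4 was most like that of Ubash3b (Pearson's r 0.9992 of log2(FPKM + 1)). The search covered 12013 named genes with a mean of 1 FPKM or more, with clone-named and numbered gene models left out. Foxa2 was most like Gata4 (0.9969), Gata6 like Bmp2k (0.9979), Sox17 like Arcn1 (0.999), Sox7 like Tmem126b (0.9949), Foxa1 like Hoxb2 (0.999), Hnf4a like Acsl4 (0.9952), Pdgfra like Plscr3 (0.9981) and Dab2 like Galnt1 (0.9983). All these values share the ES and EB libraries and so the rise between them, and they describe 8 libraries of 4 groups. Among the 9 genes themselves, r was highest between Gata4 and Foxa2 and lowest, at 0.6074, between Hnf4a and Pdgfra.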

How the data were processed

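RNA-seq (8 libraries), ChIP-seq (8 libraries) and 4 inputs (not analysed here) make up the 20 samples of the series. The authors deposited FPKM per gene and, for each mark, a ChIP signal per gene, per the file headers; the submitters' processing notes list mm10 and, without saying which did what, HTSeq, DESeq2, Bowtie2, STAR 2.6.0a and Cufflinks 2.2.1. Column names gave the samples, and 0 value columns stayed unmapped. The submitters name the ChIP values RPKM on promoters, but the length of the window behind a value is not given in the sources used here. Values are whole multiples (within 0.02 of a step) of 0.02668, or of 0.04 for H3K27me3 in wild-type EB. This holds for at least 99.99% of the values above 1 step. In a library 324 to 1276 of the 20462 values lie below 1 step. A second entry of 120 symbols among 53560 was left out.

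The 15424 genes that reached 1 FPKM in 2 or more of the 8 libraries were tested as log2(FPKM + 1) with limma 3.58.1 (R 4.3.3), all 4 groups in 1 fit, trended empirical Bayes moderation (4 residual degrees of freedom) and Benjamini-Hochberg adjustment over all genes tested. A pseudocount of 1 understates changes of low genes. ChIP ratios are log2 of (signal + 0.1), with no test; the background is genes with at least 0.5 in 1 library, 16337 for H3K27me3 and 17077 for H3K4me3. The fit was checked on simulated data. Members and lists were chosen with earlier results of these data known. Beside the 9 genes, genes were named by correlation. From each list of endoderm, GATA-related and epithelial genes, 2 of the 4 called genes with the smallest adjusted p in EB were named. Which 2 was chosen after their values were seen. Alternatives were other pseudocounts, filters and scalings, a replicate block, fewer libraries and, chosen after seeing the data, loci under 10 kb.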

Additional observations from a re-analysis of the deposited data

Results flagged for a closer look

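For 5 of the 9 endoderm genes the knockout effect on RNA differed between EB and ES by the test of the difference itself (limma, adjusted p under 0.05): Gata4 (-2.18), Gata6 (-3.62), Foxa2 (-1.77), Foxa1 (-2.12) and Pdgfra (-4.13), each as the log2 effect in EB minus that in ES. These 5 passed the filter only with EB libraries. Other genes named above come from the lists of endoderm genes, of GATA partners and relatives, and of epithelial genes. Among them the knockout effect was lower in EB than in ES for Fgfr3 (-2.99), Gata5 (-3.22), Serpinh1 (-3.23), Afp (-3.86), Zfpm2 (-2.00) and Lmo2 (-2.21). It was higher in EB than in ES for Nodal (1.96), Otx2 (1.70), Nid2 (0.66), Apoa4 (1.17), Spink1 (4.68) and Epcam (0.66). The value of Spink1 holds a change in ES as well, where it was called lower in knockout (log2 difference -2.31, limma, adjusted p = 0.0497). Apoa4 is listed at 0 in all 4 ES libraries.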

How the results depend on the processing

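With 2 libraries per group, the count of genes called in ES (77 in all) was the least stable: 49 with a pseudocount of 0.1, 34 with a mean of at least 5 FPKM, 47 with quantile normalization, 1 with only the 4 ES libraries, and 2 to 48 with 1 library left out. With 1 library left out, calls over all genes ran from 4295 to 6978 for knockout against wild type in EB, from 2314 to 3904 for EB against ES in knockout, and from 2857 to 4542 for the difference of the knockout effects, where 3 to 6 of the 9 endoderm genes were called. A mean of at least 5 FPKM tests fewer genes, with 6 of the 9 endoderm genes among them and Sox7, Foxa1 and Hnf4a left out. Of these 6, 4 were called for knockout against wild type in EB and 5 for EB against ES in knockout. For EB against ES in wild type 6244 genes were called. The 4 libraries compared alone gave 2468 genes for EB against ES in knockout. Scaling moved the split of knockout calls in EB from 3085 higher and 3992 lower to 3599 and 3498 with quantile normalization (median of all genes 0.030) and to 2286 and 5230 with a common total (-0.24), and of EB against ES in wild type from 5577 and 3823 to 4478 and 5189 with quantile normalization (-0.11). In ES, where no endoderm gene was called, the sign turned for Foxa1 with quantile normalization (-0.045) and for Sox7 with a common total (0.00048), and with 1 library left out the log2 difference ran from -0.24 to 0.23 for Sox7, -0.23 to 0.57 for Sox17, -0.054 to 0.079 for Foxa1. In EB that of Dab2 ran from -0.81 to 0.29. The replicate numbers are not given as pairs in the labels and the replicate differences of the groups correlated by 0.070 to 0.31; the replicate block gave 0, 7, 9, 9 and 6 endoderm genes called for the 5 contrasts (main 0, 7, 9, 9 and 5), the further gene being Sox7 (adjusted p = 0.0429), and 7211 genes for knockout against wild type in EB. The median H3K27me3 ratio of the 9 genes for knockout over wild type in EB was -0.19, and -0.32 with the median of all genes subtracted; for EB over ES in knockout it was 0.13 and 0.031. For the loci under 10 kb these medians were -1.92 and 0.49, with -0.39 for knockout over wild type in ES and 1.83 for EB over ES in wild type. With the median subtracted, H3K4me3 gave -0.80 for knockout over wild type in EB (main -0.92) and 1.73 for EB over ES in wild type (main 1.85), and for loci under 10 kb 0.82 for EB over ES in knockout (main 0.97). The cause of these shifts was not tested.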
